A study of Mus musculus with 6 samples.

Results

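Schwann cells are the glia of peripheral nerves, and neurotrophic factors are the proteins that guide and maintain axons. The 7 genes described here, of 21900 distinct gene symbols in the deposited table, were taken by name: Sox10, Mbp, Scn7a, Cdh19 and Ngfr as Schwann cell genes, Clstn3 as a synaptic and adipocyte gene, and S100b as both a glial and an adipocyte gene. RNA came from inguinal white adipose tissue, the subcutaneous fat of the groin, of C57BL/6 mice aged 2 months, all held for 7 days at 4 °C after chow feeding at 22 °C. The 3 knockout samples carried the genotype labelled Foxp4AdipoQΔ/Δ, in which the forkhead transcription factor gene Foxp4 is deleted by Cre under the adiponectin (Adipoq) promoter, active in adipocytes. The 3 control samples carried the floxed gene (Foxp4fl/fl), and the labels name no Cre for them. Effects of the Cre itself and of the loss of Foxp4 cannot be told apart. The Adipoq promoter is not known to be active in Schwann cells.

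Sympathetic nerves run through fat and release noradrenaline, which switches on heat production in brown and beige adipocytes during cold. Schwann cells ensheath these axons, most of them without myelin, and SOX10 is the transcription factor that sets their identity. Thermogenic adipocytes feed back on the nerve: in mice, a short product of the Clstn3 locus, calsyntenin 3β, promotes secretion of the protein S100B from adipocytes, and S100B supports growth of sympathetic axons.

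The deposited unit was FPKM, reads scaled to exon length and library size. The length covers all annotated exons of a gene, whichever transcripts are made, so comparisons between genes are approximate. Reads recovered from these values summed to between 13182515 and 16000926 per library. Foxp4 stood at 1.92, 1.71 and 1.64 FPKM in the knockouts, against 5.76, 4.01 and 4.62 FPKM in the controls, without overlap. Those genes whose mean reached 1 FPKM in knockouts or in controls were tested on log2(FPKM + 1) with limma, and p-values were adjusted over all 10787 genes tested. Only 1 of these genes, 0.00927%, passed an adjusted p of 0.05, and it was not among the 7. At an unadjusted p under 0.05, 17.1% of all genes tested were lower and 6.98% higher in knockouts. The 3 knockouts lay all below the controls in 22.7% of genes and all above in 8.48%. The median log2 fold change of all genes tested was -0.082. In whole tissue, fewer cells of a type and less RNA per cell cannot be told apart.

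The 7 genes divided by direction. Clstn3 and S100b had higher means in knockouts, Scn7a and Mbp had lower means, and the low-level genes Sox10, Cdh19 and Ngfr overlapped between groups. None passed over all genes tested in limma: 6 were tested, 0 had an adjusted p of 0.05 or less, and 4 had an unadjusted p under 0.05, with 2 higher and 2 lower. Voom on the recovered reads also called 0 of the 6, again with 4 at an unadjusted p under 0.05. In 3 of the 6 the groups did not overlap, with 1 higher (Clstn3) and 2 lower (Scn7a and Mbp), to be read against the 8.48% and 22.7% above. Counts this small give no result about the genes as a group.

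**Figure D1:**
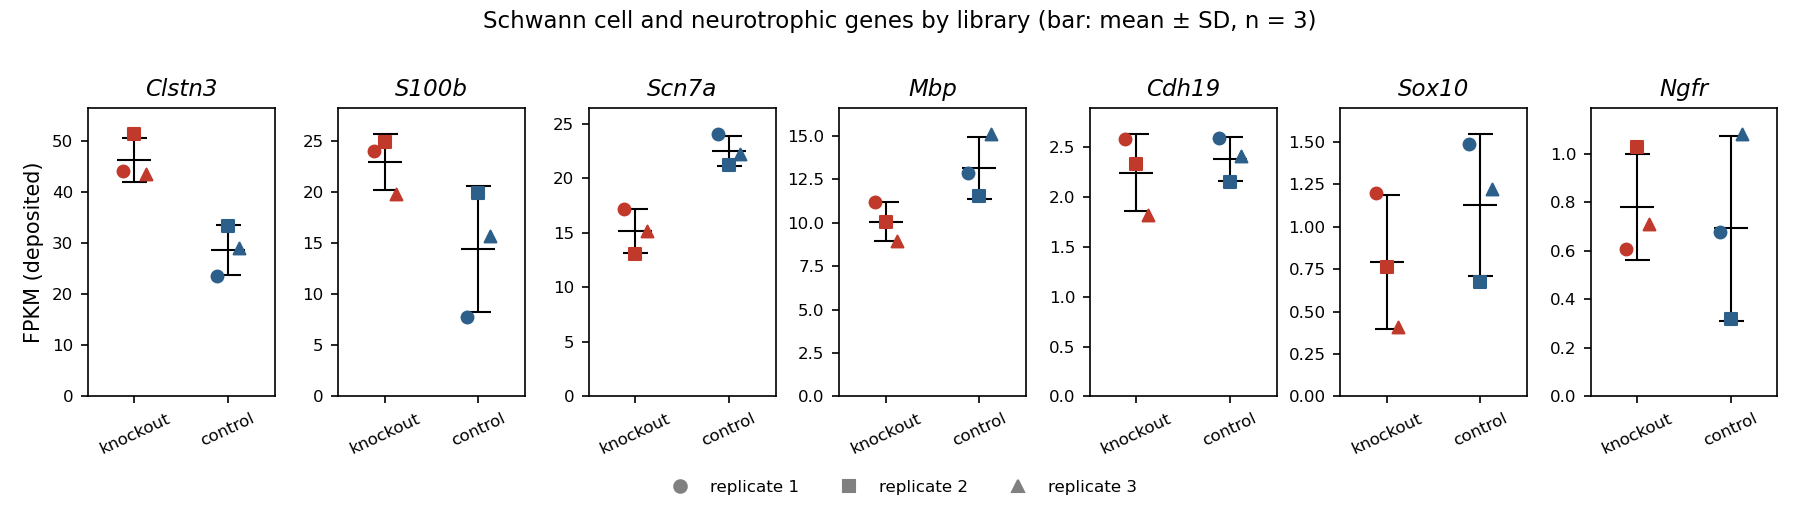
Deposited FPKM (vertical axes, each from 0) of the 7 genes in the 3 knockout and 3 control libraries, with marker shape for the replicate and black bars for the mean ± SD. Clstn3 lay above the controls in every knockout, Scn7a and Mbp lay below them in every knockout, and the other 4 genes overlapped.

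Clstn3 had the highest level of the 7 genes in all but 1 library. It encodes calsyntenin 3, a cadherin-family membrane protein of synapses, and its locus (chromosome 6, 124430759 to 124464794, minus strand, mm10) also yields the adipocyte form, which RefSeq lists among the gene's synonyms as Clstn3b. Clstn3 stood at 44.2, 51.3 and 43.6 FPKM in the knockouts, against 23.5, 33.4 and 29.1 FPKM in the controls. Every knockout exceeded every control. The means were 46.4 ± 4.30 FPKM in knockouts and 28.7 ± 4.95 FPKM in controls (SD, n = 3), a ratio of 1.62. On the log2 scale the fitted difference was 0.68, with an SE of 0.14 and a 95% interval of 0.36 to 1.004. It had an unadjusted p of 0.0014 and an adjusted p of 0.082 in limma. These values rest on 3246 to 3385 reads per knockout library and 1648 to 2427 per control library. A gene-level FPKM does not show which product of the locus the reads came from.

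S100b encodes a small calcium-binding protein of Schwann cells, astrocytes and thermogenic adipocytes, and lies on chromosome 10 (76253853 to 76261159, plus strand). It stood at 24.1, 24.96 and 19.9 FPKM in the knockouts, against 7.75, 19.9 and 15.7 FPKM in the controls. Knockout replicate 3 lay just below control replicate 2, at 19.86 and 19.92 FPKM, so the groups overlapped by this one pair. The means were 23.0 ± 2.73 FPKM in knockouts and 14.5 ± 6.18 FPKM in controls (SD, n = 3), a ratio of 1.59. Spread in the controls came mostly from replicate 1, whose 7.75 FPKM rested on 162 reads, and the coefficient of variation was 11.9% in knockouts and 42.8% in controls. The fit gave a log2 fold change of 0.72, with an SE of 0.30 and a 95% interval of 0.015 to 1.42, at an unadjusted p of 0.046 and an adjusted p of 0.20 in limma. Without control replicate 1 it was 0.35 (unadjusted p = 0.048, adjusted p = 0.25 in limma). With any 1 knockout library left out the unadjusted p lay above 0.05, at 0.058 to 0.12 in limma, while the log2 fold change was 0.66 to 0.81.

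S100b and Clstn3 lay closer to each other across the libraries than either did to the other tested glial genes. Likeness was measured as the root-mean-square difference between 2 genes in log2(FPKM + 1), each centred on its mean over the 6 libraries. S100b differed from Clstn3 by 0.25. A gene that did not vary would differ from S100b by 0.53, so the measure reflects the size of variation as well as its direction. S100b ranked 546 of 10786 genes by closeness to Clstn3, while Clstn3 ranked 34 by closeness to S100b. By the same measure S100b differed by 0.73 from Sox10 (rank 9997), by 0.58 from Cdh19 (rank 5746), by 0.67 from Mbp (rank 9131) and by 0.78 from Scn7a (rank 10367). These values share the libraries and the genotype difference, so the ranks are a description. The FPKM of S100b was 0.54, 0.49 and 0.46 times that of Clstn3 in the knockouts, against 0.33, 0.60 and 0.54 times in the controls. Relative to Sox10, S100b ranged from 20.1 to 48.3 times in knockouts and from 5.20 to 29.6 times in controls, a wider span. Sox10 rested on 19 to 64 reads per library, so counting error adds to that span. Relative to Mbp, S100b was at 2.1, 2.5 and 2.2 times in the knockouts, against 0.60, 1.73 and 1.04 times in the controls.

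Markers of thermogenic adipocytes varied in the same libraries. Ucp1, the uncoupling protein of beige fat, stood at 2898, 3009 and 1875 FPKM in the knockouts, against 800, 1333 and 2007 FPKM in the controls. Control replicate 1 was the lowest library for Ucp1, S100b and Clstn3 alike, and knockout replicate 2 the highest for all 3. Of the 8 thermogenic markers, all had a positive log2 fold change, 5 with an unadjusted p under 0.05, against 6.98% of all genes tested. Their median was 0.88. Their summed level was 2821 to 4368 FPKM in knockouts and 1262 to 2833 FPKM in controls. Of 8 general adipocyte markers, 7 had a negative log2 fold change. At an unadjusted p under 0.05, 2 of them were lower, against 17.1% of all genes tested. The 8 summed to 6104 to 6515 FPKM in knockouts and 6333 to 7853 FPKM in controls. The part of these markers in the S100b and Clstn3 values was not tested.

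**Figure D2:**
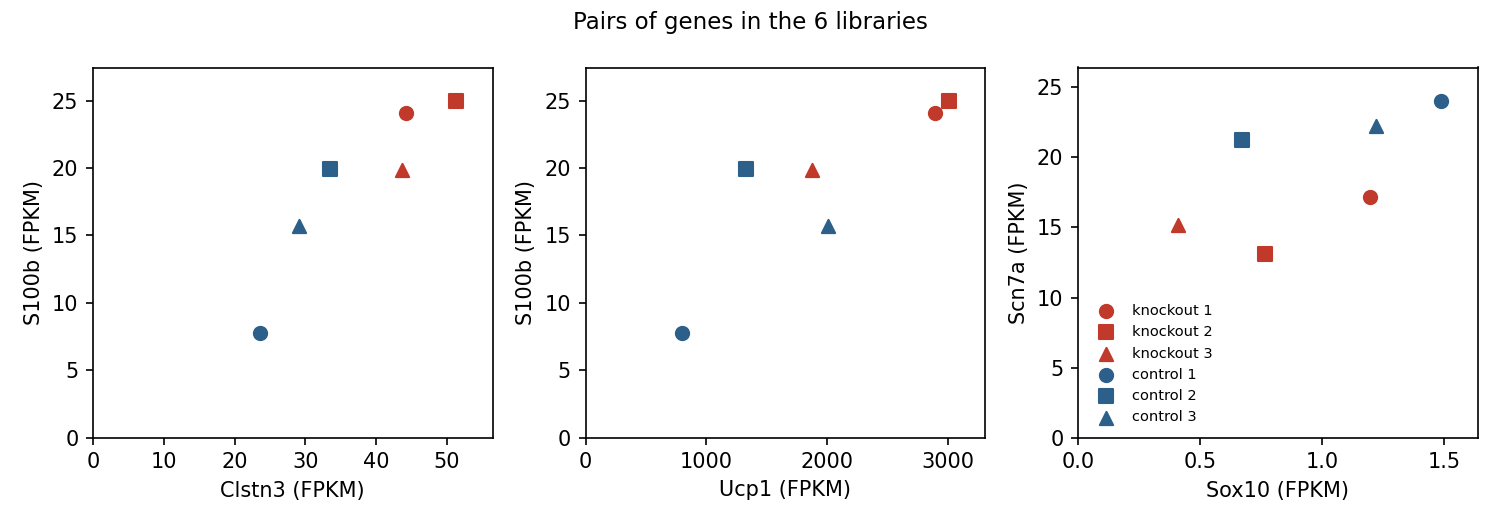
FPKM of S100b against Clstn3 (left), S100b against Ucp1 (middle) and Scn7a against Sox10 (right) in each library, with red for knockouts, blue for controls and marker shape for the replicate. Control replicate 1 lies lowest for S100b, Clstn3 and Ucp1, while in the right panel the 3 controls lie above the 3 knockouts for Scn7a at overlapping Sox10 values.

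The sequences just before the transcription starts are shown for S100b and Clstn3, which lay close by the root-mean-square measure. Scn7a is shown as the gene with the smallest p among those lower in knockouts. The sequences are the 250 bases upstream of each RefSeq start (GRCm38.p6, the assembly of mm10), written 5′ to 3′ on the strand of the gene. RefSeq windows were searched for 4 of the 7 genes, Scn7a, S100b, Ngfr and Clstn3, the last with a pair of starts. The rest of the 7 genes were not searched, so the motif counts below do not cover them. Capitals mark the CCAAT box, searched as CCAAT on both strands and so printed as ATTGG where it lies on the opposite strand.
S100b (chr10:76253586-76253835, plus strand): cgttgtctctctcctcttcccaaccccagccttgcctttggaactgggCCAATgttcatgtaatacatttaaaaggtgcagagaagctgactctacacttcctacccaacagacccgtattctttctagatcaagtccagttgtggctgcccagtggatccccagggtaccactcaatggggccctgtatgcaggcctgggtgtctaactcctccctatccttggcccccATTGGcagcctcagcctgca
Clstn3, upstream start (chr6:124464785-124465034, minus strand): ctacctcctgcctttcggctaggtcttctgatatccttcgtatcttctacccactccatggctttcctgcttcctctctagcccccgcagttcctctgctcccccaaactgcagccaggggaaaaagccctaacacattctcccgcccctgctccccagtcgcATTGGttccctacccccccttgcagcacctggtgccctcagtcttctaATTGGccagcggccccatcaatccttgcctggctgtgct
Clstn3, downstream start (chr6:124462745-124462994, minus strand): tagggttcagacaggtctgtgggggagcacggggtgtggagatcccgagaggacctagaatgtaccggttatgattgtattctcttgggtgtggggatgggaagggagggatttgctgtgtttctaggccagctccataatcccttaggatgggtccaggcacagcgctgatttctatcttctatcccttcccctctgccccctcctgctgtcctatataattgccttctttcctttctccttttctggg
Scn7a (chr2:66784911-66785160, minus strand): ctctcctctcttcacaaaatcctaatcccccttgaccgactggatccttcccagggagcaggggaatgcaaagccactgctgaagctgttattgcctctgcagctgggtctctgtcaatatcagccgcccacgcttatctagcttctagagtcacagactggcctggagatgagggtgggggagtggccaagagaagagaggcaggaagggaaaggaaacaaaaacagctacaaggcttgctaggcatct
Clstn3 had a CCAAT box 87 to 83 and 39 to 35 bases before its upstream start, both on the opposite strand. In the S100b window it lay 202 to 198 bases before the start on the gene's strand and 20 to 16 bases before it on the opposite strand. The CCAAT box was chosen after these letters were seen, and 33.8% of 32851 mouse promoter windows of the same length hold it. The SOX core letters ACAAAG or ACAATG, on either strand, are in 25.2% of those windows and in 0 of the 5 windows searched for these genes. The forkhead letters GTAAACA or GTAAATA, on either strand, are in 5.76% of the windows and likewise in 0 of the 5. No motif matches overlapped.

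Scn7a encodes a sodium-sensing channel protein found in non-myelinating Schwann cells. It lies on chromosome 2 (66673425 to 66784914, minus strand) and had a mean of 18.8 FPKM over the 6 libraries, about the level of S100b. It stood at 17.1, 13.1 and 15.2 FPKM in the knockouts, against 24.0, 21.3 and 22.3 FPKM in the controls. All knockouts lay below all controls. The means were 15.1 ± 2.03 FPKM in knockouts and 22.5 ± 1.40 FPKM in controls (SD, n = 3), so that the knockout mean was lower by 32.7%. Its log2 fold change of -0.55 had an SE of 0.11 and a 95% interval of -0.80 to -0.29, with an unadjusted p of 0.0014 and an adjusted p of 0.081 in limma, on 1275 to 1861 reads per knockout library and 2279 to 2633 per control library. In each fit that left out 1 library it stayed between -0.64 and -0.45, with adjusted p of 0.10 to 0.29. By the root-mean-square measure Mbp ranked 728 of 10786 genes by closeness to Scn7a, Sox10 3703 and Cdh19 4520. Whole-tissue values do not show which cells the Scn7a reads came from.

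Mbp encodes myelin basic protein, the structural protein of compact myelin; longer transcripts of the same gene, known as golli, are also made in immune cells. The gene (chromosome 18, 82475146 to 82585637, plus strand) stood at 11.2, 10.05 and 8.95 FPKM in the knockouts, against 12.9, 11.5 and 15.1 FPKM in the controls. The groups did not overlap, but the highest knockout and the lowest control lay close together, at 11.2 and 11.5 FPKM. Mean levels were 10.1 ± 1.14 FPKM in knockouts and 13.2 ± 1.79 FPKM in controls (SD, n = 3), and the log2 fold change was -0.35 (SE 0.12, 95% interval -0.64 to -0.072). The unadjusted p was 0.021 and the adjusted p 0.15 in limma. The unadjusted p was 0.052 without knockout replicate 2, 0.073 without knockout replicate 3 and 0.058 without control replicate 3. The table has 1 value for the gene, so myelin and golli transcripts are not separated.

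Sox10, which encodes the transcription factor of the Schwann cell lineage, was near the lower limit of the test. Its levels were 1.20, 0.77 and 0.41 FPKM in the knockouts and 1.49, 0.67 and 1.22 FPKM in the controls (chromosome 15, 79154908 to 79165240, minus strand). Control replicate 2 was below 2 of the knockouts, and knockout replicate 3 was the lowest of all. These levels came from 54, 31 and 19 reads in the knockouts and 64, 30 and 60 reads in the controls. Counting error alone gives knockout replicate 3 an exact Poisson 95% interval of 0.25 to 0.64 FPKM and control replicate 1 one of 1.15 to 1.90 FPKM. Such intervals cover counting error only, since reads copied by PCR are not independent molecules. The log2 fold change of -0.25 (SE 0.21, 95% interval -0.74 to 0.24) had an adjusted p of 0.48 in limma, and it was -0.092 without knockout replicate 3, -0.41 without knockout replicate 1 and -0.42 without control replicate 2. Since adding 1 FPKM shrinks the change of so low a gene, it was -0.50 with a pseudocount of 0.1 (adjusted p = 0.48 in limma) and -0.47 with voom on the recovered reads (adjusted p = 0.56), and the ratio of the means was 0.70. Sox10 missed the expression threshold without control replicate 1.

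Cdh19 encodes a cadherin of Schwann cells and their precursors, and its levels hardly separated the groups. It stood at 2.58, 2.32 and 1.82 FPKM in the knockouts and 2.59, 2.14 and 2.41 FPKM in the controls (chromosome 1, 110888326 to 110977584, minus strand). Knockout replicate 3 was the lowest library, as for Sox10. The log2 fold change was -0.065 (SE 0.11, 95% interval -0.33 to 0.20, adjusted p = 0.75 in limma), and its sign turned without knockout replicate 3 (0.031) and with voom on the recovered reads (0.0022).

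Ngfr encodes the p75 neurotrophin receptor, carried by non-myelinating and repair Schwann cells and also by other stromal cells. It had the lowest mean of the 7 genes, 0.74 FPKM, and reached a mean of 1 FPKM in neither group, so it did not enter the test. Its levels were 0.61, 1.03 and 0.71 FPKM in the knockouts and 0.68, 0.32 and 1.08 FPKM in the controls (chromosome 11, 95568818 to 95587735, minus strand). Both the lowest and the highest library were controls, with 16 and 60 reads. Fitted without an expression filter, the log2 fold change was 0.092 (SE 0.18, 95% interval -0.34 to 0.52, adjusted p = 0.82 in limma), and the sign turned without knockout replicate 2 (-0.0048) or control replicate 2 (-0.076).

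**Figure D3:**
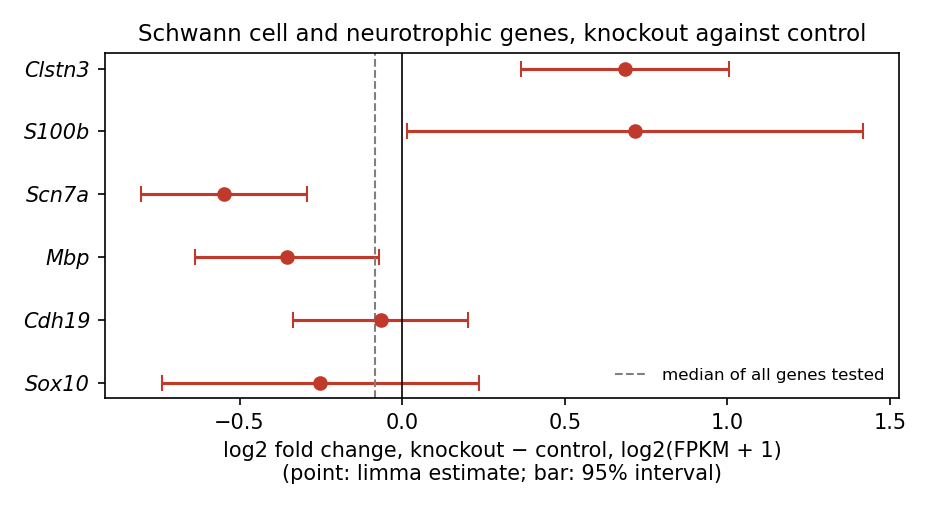
Fitted log2 fold change, knockout minus control, on log2(FPKM + 1) for the 6 genes that entered the test, with limma's 95% interval, and a dashed line at the median of all genes tested (-0.082). The intervals of Clstn3, S100b, Scn7a and Mbp exclude 0 before adjustment, and those of Cdh19 and Sox10 include it.

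The order of levels differed between the groups at one place. In knockouts the means ran from Clstn3 (46.4 FPKM) through S100b (23.0), Scn7a (15.1), Mbp (10.1), Cdh19 (2.24) and Sox10 (0.79) to Ngfr (0.78 FPKM), and in controls S100b (14.5 FPKM) stood below Scn7a (22.5 FPKM). The places of S100b and Scn7a were exchanged in all 6 libraries: S100b was at 1.40, 1.91 and 1.31 times the FPKM of Scn7a in the knockouts, against 0.32, 0.94 and 0.71 times in the controls. This within-library ratio does not depend on the scaling between libraries, though its size depends on the exon lengths used. Clstn3 was likewise at 2.58, 3.92 and 2.87 times the FPKM of Scn7a in the knockouts and at 0.98, 1.57 and 1.30 times in the controls. In control replicate 1, Scn7a thus stood level with Clstn3. Neighbours whose means differed by less than the larger of their SDs were Sox10 and Ngfr in knockouts, and S100b and Mbp in controls. The FPKM of Scn7a was 1.30 to 1.70 times that of Mbp in knockouts and 1.48 to 1.86 times in controls, with overlap. Ratios to the low gene Sox10 spread more widely, with Scn7a at 14.3 to 36.9 times its FPKM in knockouts and 16.1 to 31.6 times in controls.

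Other Schwann cell genes mostly had lower values in knockouts, with overlap in most. Of 13 myelin genes 8 were tested, 7 with a negative log2 fold change and 2 of these with an unadjusted p under 0.05, against 17.1% of all genes tested. The list median was -0.26, beside -0.082 for all genes tested, so the whole table also leaned lower. Cnp, a myelin enzyme also made in other cells, stood at 6.08, 6.81 and 6.41 FPKM in the knockouts, against 8.17, 8.26 and 8.23 FPKM in the controls (log2 fold change -0.31, adjusted p = 0.089 in limma). Prx, a scaffold protein of myelinating Schwann cells, averaged 2.01 ± 0.62 FPKM in knockouts and 3.03 ± 0.56 FPKM in controls (SD, n = 3), with overlap. Pmp22, which fibroblasts also express, stood at 88.6 ± 14.1 FPKM in knockouts and 99.97 ± 24.5 FPKM in controls (SD, n = 3). Prx and Sox10, which mark Schwann cells, were above 0 in every library.

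Of 16 genes of non-myelinating or all Schwann cells, 3 entered the test and 13 were too low. Plekhb1, a membrane protein gene, stood at 2.55, 2.35 and 2.76 FPKM in the knockouts and 3.71, 3.52 and 3.71 FPKM in the controls (log2 fold change -0.39, adjusted p = 0.082 in limma). Cadm4, a Schwann cell adhesion molecule, averaged 3.34 FPKM in knockouts and 4.51 FPKM in controls, with overlap. Gpm6b, a relative of the myelin proteolipid, averaged 2.26 FPKM in knockouts and 2.81 FPKM in controls, also with overlap. The list's 3 tested genes had a median of -0.36, which was -0.18 without knockout replicate 3. Over all 16 genes without the filter the median was -0.093, with 15 below 0, on a scale that holds low genes near 0. Among 11 other Schwann cell genes tested, Pmp22 (rank 43 of 10786) and Prx (rank 74) were closest to Sox10 by the root-mean-square measure. The list of perineurial and endoneurial genes, of the cells around and between nerve fibres, had 4 tested genes of 7. Of these, 2 were lower at an unadjusted p under 0.05, against 17.1% of all genes tested. The median of the 4 was -0.27, while over all 7 genes without the filter it was 0.037, with 4 above 0 and 3 below. Osr2, a transcription factor gene, averaged 2.31 ± 0.24 FPKM in knockouts and 3.22 ± 0.15 FPKM in controls. Itgb4, an integrin of the perineurium and of epithelia, averaged 1.52 ± 0.14 FPKM in knockouts and 2.29 ± 0.43 FPKM in controls (SD, n = 3 for both). Slc2a1, the glucose transporter of the perineurium and many other cells, stood at 2.91 FPKM in knockouts and 3.41 FPKM in controls.

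**Figure D4:**
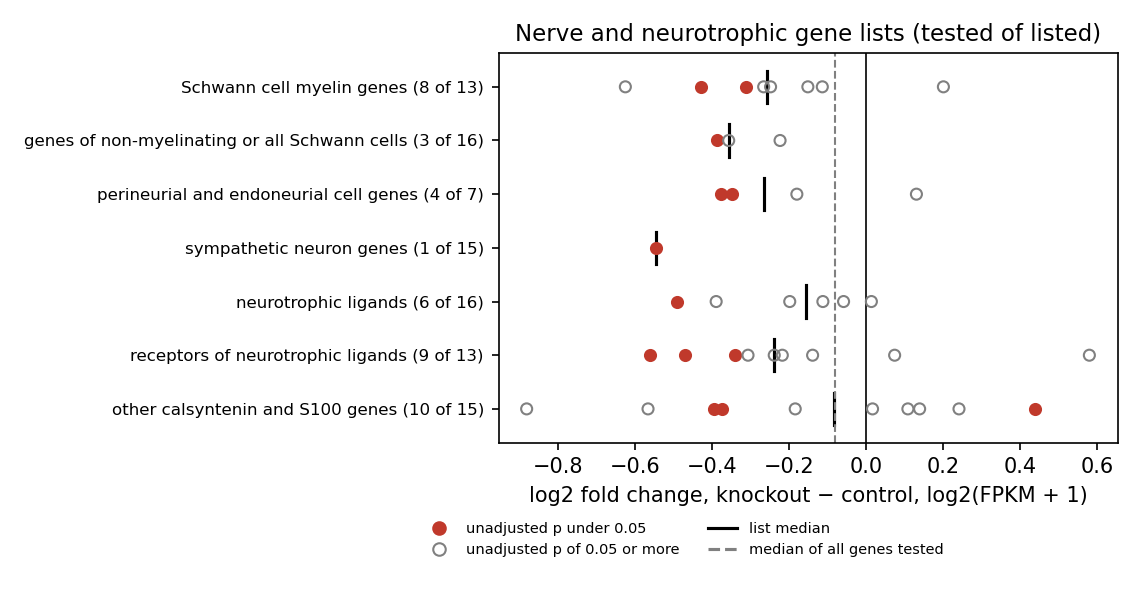
Log2 fold change, knockout minus control, on log2(FPKM + 1) for each tested gene of 7 lists (rows), filled red where the unadjusted limma p is under 0.05, with the list median (black bar) and the median of all genes tested (dashed, -0.082). The medians of the tested genes lie between -0.55, which is the single gene Uchl1, and -0.084, and no gene shown passed over all genes tested. Without the filter the medians of the sympathetic (0.0078) and perineurial (0.037) lists lie above 0.

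Among secreted neurotrophic factors 6 of 16 were tested. At an unadjusted p under 0.05, 1 was lower and 0 higher, against 17.1% and 6.98% of all genes tested. The lower one was Ctf1, which encodes cardiotrophin 1, a cytokine acting through the gp130 receptor. Ctf1 stood at 2.11, 2.02 and 1.77 FPKM in the knockouts, against 3.31, 3.79 and 2.52 FPKM in the controls (log2 fold change -0.49, adjusted p = 0.10 in limma). The adipocyte factor Nrg4, a ligand of the ErbB family that promotes neurite growth, was the most abundant, at 17.9, 17.5 and 15.9 FPKM in the knockouts and 24.8, 18.8 and 16.5 FPKM in the controls. Nrtn, which encodes neurturin, averaged 2.17 FPKM in knockouts and 2.34 FPKM in controls, and Mdk, which encodes midkine, 0.87 FPKM in knockouts and 1.42 FPKM in controls, each with overlap. The list median was -0.16, with -0.31 without control replicate 2 and -0.046 over all 16 genes without the filter.

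Receptors for these factors gave 9 tested genes of 13. At an unadjusted p under 0.05, 3 were lower and 0 higher, against 17.1% and 6.98% of all genes tested. The median of the 9 was -0.24, and that of all 13 without the filter was -0.14. Lifr, the receptor of leukaemia inhibitory factor, stood at 5.08, 4.58 and 4.38 FPKM in the knockouts, against 7.61, 6.38 and 8.24 FPKM in the controls (log2 fold change -0.56, adjusted p = 0.079 in limma). Il6st, which encodes gp130, the subunit shared with Lifr, averaged 16.9 ± 1.07 FPKM in knockouts and 24.0 ± 3.36 FPKM in controls (SD, n = 3), with a log2 fold change of -0.47 at an adjusted p of 0.094 in limma. Sort1, which encodes the sorting receptor sortilin, a partner of p75, stood at 48.0 ± 1.43 FPKM in knockouts and 61.6 ± 10.1 FPKM in controls. Ntrk2, the receptor of brain-derived neurotrophic factor, averaged 9.18 FPKM in knockouts and 10.99 FPKM in controls, with overlap. Most of these receptors are made by many cell types.

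Transcripts of the sympathetic neurons themselves, whose cell bodies lie in ganglia outside the fat, were scarce. Of 15 genes 1 was tested, and Th and Dbh, which encode enzymes of noradrenaline synthesis, were listed at 0 in every library. Uchl1, an abundant neuronal enzyme also made elsewhere, stood at 1.04, 0.97 and 0.85 FPKM in the knockouts, against 2.09, 1.43 and 2.09 FPKM in the controls (log2 fold change -0.55, adjusted p = 0.088 in limma). Its log2 fold change was -0.89 with a pseudocount of 0.1 and -0.85 with voom. The list as a whole had no such direction: of the 12 genes above 0 FPKM in some library, 6 had a positive and 6 a negative log2 fold change without the filter, with a median of 0.0078. Prph, which encodes the neuronal filament peripherin, stood at 0.14, 0.075 and 0.13 FPKM in the knockouts, against 0.036, 0.034 and 0.062 FPKM in the controls, far below the level tested.

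Markers of other cell types also differed between the libraries. All 7 macrophage markers were lower at an unadjusted p under 0.05, against 17.1% of all genes tested. They summed to 267 to 356 FPKM in knockouts and 440 to 570 FPKM in controls. All 8 fibroblast and pericyte markers had a negative log2 fold change, 4 with an unadjusted p under 0.05, against the same 17.1%. Their sums were 265 to 301 FPKM in knockouts and 296 to 561 FPKM in controls. Endothelial markers summed to 81.6 to 96.0 FPKM in knockouts and 82.2 to 144 FPKM in controls, highest in control replicate 3, where Mbp and Ngfr were also highest. Skeletal muscle markers summed to 20.5 to 314 FPKM in knockouts and 16.3 to 69.4 FPKM in controls, and were highest in knockout replicate 3. Lymph node markers summed to 5.29 to 15.0 FPKM in knockouts and 9.06 to 17.9 FPKM in controls. The melanocyte marker Tyr was listed at 0 in every library and Dct was at most 0.35 FPKM. Pmel, at 0.29 to 0.75 FPKM, and Mlana, at 0.13 to 0.65 FPKM, were above 0 in every library, while Tyrp1 and Slc45a2 were not. Mitf, a regulator of melanocytes and also of macrophages, stood at 1.55 ± 0.28 FPKM in knockouts and 3.27 ± 0.28 FPKM in controls (SD, n = 3). The part of these cell types in the values of Scn7a, Mbp and the lists was not tested.

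The nearest genes of the whole table, by the root-mean-square measure over the 6 libraries, were not glial markers: 0 of the 18 genes closest to the 6 tested genes stood in any list. Mbp was closest to Dsel (0.031), Sox10 to Lfng (0.055), Cdh19 to Fbxl15 (0.021) and S100b to the receptor kinase gene Grk3 (0.12). Nearest to Clstn3 was Tstd3 (0.035), followed by Gpd1 (0.054), which encodes the adipocyte enzyme glycerol-3-phosphate dehydrogenase. Gpd1 stood at 1772, 2157 and 1790 FPKM in the knockouts, against 979, 1375 and 1321 FPKM in the controls.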

How the data were processed

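Stranded, polyadenylated RNA libraries were read on Illumina's HiSeq platform (per the labels' protocols), and the submitters' processing notes name cutadapt, HISAT2, HTSeq and mm10. Versions, annotation and the strand setting were not given in the sources used here. The authors deposited FPKM per gene, 1 column per sample. The unit was read from the values: FPKM times exon length (GENCODE M21) and 1 factor per library gave a whole number (tolerance 0.05) in 97.9 to 98.1% of cases below 50 reads. The higher of repeated symbols was kept (36 rows left out). The test was limma 3.58.1 (R 4.3.3) on log2(FPKM + 1), with the prior variance following the mean. This scale understates folds of low genes. Fits used genotype alone, Benjamini-Hochberg adjustment and a threshold of 0.05. On simulated data the test recovered 54.0% of 1.5-fold and 97.6% of 4-fold changes, with 8.8 false calls per run. The simulated noise was drawn independently for each gene, so variation shared between genes in tissue is not covered. With 3 samples a side, the smallest two-sided p of an exact permutation test is 0.10. Whether samples were single mice or pools is not stated, and the spread behind the p-values may be technical. No batch or sex is given.

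The genes and lists were chosen with earlier results of these data known. Named genes were the 7, Foxp4, per nerve-related list up to 3 tested genes with the highest mean and up to 2 with the smallest p, per cell type list up to 2 with the highest mean, and the 3 nearest genes of each tested gene. Of these, some are given only as counts or not reported here. Tyr, Dct, Pmel, Mlana, Tyrp1, Slc45a2, Th, Dbh and Prph were chosen after their values were seen. Alternatives were a pseudocount of 0.1, no filter, a filter at 5 FPKM, median-of-ratios scaling, the replicate number as a block, voom on recovered reads with trimmed-mean scaling, and leaving out each library.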

Additional observations from a re-analysis of the deposited data

How the results depend on the processing

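Scn7a, Mbp, Sox10, S100b and Clstn3 kept the sign of their log2 fold change, and none of the 7 genes passed an adjusted p of 0.05, under each alternative that could be fitted. The smallest adjusted p of any was 0.052, for Clstn3 with voom on the recovered reads, and over its alternatives that p ranged up to 0.29. Ngfr ranged from -0.076 to 0.25 and Cdh19 from -0.14 to 0.031 when 1 library was left out, and Cdh19 was 0.0022 with voom. Sox10 and Cdh19 could not be fitted at a filter of 5 FPKM, nor Sox10 without control replicate 1. Over the whole table, where 1 gene was called, 0 passed without a filter (2980 at an unadjusted p under 0.05), 2 at a filter of 5 FPKM and 0 with voom (2385 at an unadjusted p under 0.05), and leaving out 1 library gave 0 to 5. The higher genes at an unadjusted p under 0.05 numbered 1 without a filter, since S100b then had 0.059. They numbered 1 to 2 when 1 library was left out, as did the lower genes. The cause was not tested.

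Replicate numbers did not pair the samples: same-numbered libraries had correlations of 0.065, 0.027 and -0.25 in their deviations from the group means, and not every sample correlated best with its own number. With the replicate number as a block 0 genes were called over the whole table (2218 at an unadjusted p under 0.05), and Clstn3 had an adjusted p of 0.14, Scn7a 0.14, Mbp 0.23 and S100b 0.23. Depth limits Sox10 and Ngfr, with 16 to 64 reads per library.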

Other observations

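Relatives of the calsyntenin and S100 genes went both ways. Of 15 listed, 10 were tested, with a median log2 fold change of -0.084. At an unadjusted p under 0.05, 1 was higher and 2 lower, against 6.98% and 17.1% of all genes tested. The second calsyntenin, Clstn2, stood at 0.78, 0.48 and 0.79 FPKM in the knockouts, against 1.01, 1.19 and 1.44 FPKM in the controls (log2 fold change -0.40, adjusted p = 0.13 in limma). S100a6, a calcium-binding protein abundant in stromal cells, averaged 41.6 ± 1.65 FPKM in knockouts and 54.7 ± 8.91 FPKM in controls (SD, n = 3; adjusted p = 0.13 in limma). S100a1, which binds S100B in mixed dimers, stood at 279, 290 and 250 FPKM in the knockouts, against 208, 238 and 248 FPKM in the controls, without overlap (log2 fold change 0.24, adjusted p = 0.22 in limma). The most abundant, S100a11, averaged 428 FPKM in knockouts and 391 FPKM in controls, and S100a10 98.03 FPKM in knockouts and 97.4 FPKM in controls, both with overlap. The 1 higher was S100a13, which was named after its values were seen, at 94.3, 111 and 76.8 FPKM in the knockouts and 57.9, 69.0 and 80.1 FPKM in the controls. The list median was 0.045 without control replicate 3 and 0.062 at a filter of 5 FPKM.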
